A study of Homo sapiens with 6 samples.

Results

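The KDM4 family was followed through its 4 members named for this comparison, KDM4A, KDM4B, KDM4C and KDM4D. A probe set counted as a member where the platform annotation gave it exactly 1 gene symbol and that symbol was one of the 4. Each gene had 1 such probe set, so 4 of 16098 named probe sets, in a table of 53617, were members. The cells were BE(2)-C_tetoff_KDM4C, a derivative of the human neuroblastoma line BE(2)-C that carries a KDM4C construct under tet-off control, in which doxycycline keeps the construct silent. Total RNA was measured on 6 Affymetrix whole-transcript arrays at day 6, 3 from cells grown without doxycycline (construct on) and 3 from cells grown with it (construct off). All 6 came from the same derivative in medium with dialyzed serum, whether it is 1 clone is not given in the sources used here, and no array of cells without the construct was analysed here. Each difference is therefore that of the construct and of doxycycline withdrawal together, which cannot be told apart. The design text calls the 3 samples of a group independent without naming separate cultures, so p-values measure the spread between these samples, which may be technical.

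KDM4 proteins are JmjC oxygenases that use iron and 2-oxoglutarate to take methyl groups off lysines of histone H3. KDM4A, KDM4B and KDM4C act on trimethylated and dimethylated H3K9, a mark of silent chromatin, and on H3K36, a mark laid down along transcribed genes. These 3 proteins carry PHD and Tudor domains that bind chromatin. KDM4D is shorter, lacks those domains and acts on H3K9 but not on H3K36. KDM4C was found as a gene amplified in squamous cancers of the oesophagus.

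A tet-off construct is transcribed from a promoter of its own, and the whole-transcript probe set of KDM4C does not separate its RNA from that of the endogenous gene. The start regions of the 4 endogenous genes are shown here because they are what the paralogs do not share with the construct, and because the 4 genes differ in them. Each is 250 bases before to 50 bases after the RefSeq start on GRCh38.p14, all on the plus strand: chr1:43649899-43650198 for KDM4A, chr19:4968863-4969162 for KDM4B, chr9:6757723-6758022 for KDM4C and chr11:94973459-94973758 for KDM4D. Capitals mark CCAAT boxes (CCAAT), E-boxes (CACGTG, the site that MYC proteins bind) and GC boxes (GGGCGG), each searched on both strands.
KDM4A: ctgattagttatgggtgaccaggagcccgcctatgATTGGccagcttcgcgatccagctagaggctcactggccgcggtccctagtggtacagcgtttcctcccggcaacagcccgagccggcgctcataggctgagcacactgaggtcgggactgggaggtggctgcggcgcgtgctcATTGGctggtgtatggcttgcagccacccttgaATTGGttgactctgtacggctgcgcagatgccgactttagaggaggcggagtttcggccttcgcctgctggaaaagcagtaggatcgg
KDM4B: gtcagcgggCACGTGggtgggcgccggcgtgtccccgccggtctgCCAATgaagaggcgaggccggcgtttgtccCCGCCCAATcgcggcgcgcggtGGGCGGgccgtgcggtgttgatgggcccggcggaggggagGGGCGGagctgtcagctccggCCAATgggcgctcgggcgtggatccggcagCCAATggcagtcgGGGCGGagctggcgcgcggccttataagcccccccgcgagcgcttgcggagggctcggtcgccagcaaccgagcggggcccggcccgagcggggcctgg
KDM4C: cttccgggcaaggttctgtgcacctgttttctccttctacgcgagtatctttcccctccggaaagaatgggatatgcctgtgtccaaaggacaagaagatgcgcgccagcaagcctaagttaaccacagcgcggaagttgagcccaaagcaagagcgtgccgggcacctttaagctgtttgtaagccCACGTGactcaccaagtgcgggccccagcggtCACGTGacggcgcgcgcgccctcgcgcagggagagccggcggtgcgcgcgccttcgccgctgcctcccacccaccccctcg
KDM4D: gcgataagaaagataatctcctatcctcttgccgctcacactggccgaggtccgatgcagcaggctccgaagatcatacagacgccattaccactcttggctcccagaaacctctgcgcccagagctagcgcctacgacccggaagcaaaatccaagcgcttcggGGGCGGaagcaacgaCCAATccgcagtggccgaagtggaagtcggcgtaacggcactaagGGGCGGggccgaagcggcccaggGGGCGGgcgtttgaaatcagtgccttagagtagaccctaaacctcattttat

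KDM4A held 3 CCAAT boxes and none of the other capitalised motifs. KDM4B held 4 CCAAT boxes, 4 GC boxes and 1 E-box, with 1 GC box overlapping 1 CCAAT box. KDM4C held 2 E-boxes, 63 and 31 bases before the start, and no CCAAT or GC box. KDM4D held 1 CCAAT box and 3 GC boxes. Of 27305 RefSeq promoters of the same length, 35.7% held a CCAAT box, 44.6% a GC box and 7.43% an E-box. None of the 4 windows held the letters TGATGNAA of the C/EBP-ATF element or TGACGTCA of the CRE, which 3.67% and 1.98% of the promoters held. The windows of KDM4A, KDM4B, KDM4C and KDM4D had 61.0%, 76.7%, 62.7% and 58.0% G and C, with 21, 43, 29 and 24 CpG. That of KDM4B had more G and C than 93.4% of promoters. These matches are descriptions of the letters, not of binding.

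Of the 4 paralogs, KDM4C rose in cells without doxycycline, and KDM4A, KDM4D and KDM4B did not pass the test. Thus 1 of 4 passed as higher, where 0.248% of all probe sets did (limma adjusted p below 0.05). That 1 is KDM4C, the gene the construct encodes, and a rise of it is what the design sets out to produce. The share therefore says nothing about a response of the family. The limma adjusted p of KDM4A, KDM4D and KDM4B was 0.146, 0.367 and 0.866. In 3 of the 4, KDM4A, KDM4C and KDM4D, every array without doxycycline lay above every array with it, where 10.2% of all probe sets did the same. KDM4C is counted there too, so only KDM4A and KDM4D are paralogs in that count which the construct does not encode. The differences followed the order KDM4C, KDM4A, KDM4D and KDM4B, at 1.27, 0.55, 0.28 and 0.05 on the log2 scale.

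KDM4C stood at 8.97, 9.08 and 9.02 in cells without doxycycline, against 7.71, 7.77 and 7.80 in cells with it (log2 expression values). The groups were 1.17 apart at their nearest arrays, and the arrays of 1 group lay within 0.11 of each other. The means were 9.03 ± 0.05 without doxycycline and 7.76 ± 0.05 with it (SD, n = 3 each). The fold change was 2.40 with a 95% confidence interval of 2.16 to 2.68 (log2 difference 1.27, SE 0.07, limma adjusted p = 0.00788). Higher KDM4C without the drug is what the tet-off label describes. Among 16098 named probe sets KDM4C had the 12th highest difference, and 0.0578% of all probe sets were higher. Summarised array values are known to compress large folds. The adjusted p was above 0.05 in 4 of the 6 fits with 1 array fewer, at 0.0632 and 0.0597 without doxycycline-treated replicate 1 or 2 and at 0.0643 and 0.0696 without untreated replicate 2 or 3, while the difference lay between 1.24 and 1.29.

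KDM4A, which like KDM4B shares the domain layout of KDM4C, had the next largest difference and did not pass the threshold. Its values were 7.69, 7.44 and 7.76 in cells without doxycycline, against 6.98, 7.01 and 7.26 in cells with it. The groups did not overlap and were 0.18 apart at their nearest arrays, untreated replicate 2 and doxycycline-treated replicate 3. The means were 7.63 ± 0.17 without doxycycline and 7.08 ± 0.16 with it (SD, n = 3 each). The fold was 1.46, with a 95% confidence interval of 1.21 to 1.78 for this gene alone (log2 difference 0.55, SE 0.12). The unadjusted p was 0.00246 and the adjusted p was 0.146 in limma's fit across all probe sets. An unadjusted p below 0.05 with a positive difference was found for 6.7% of all probe sets. A difference above that of KDM4A was found for 1.1% of all probe sets, and the arrays of KDM4A were farther from each other, by up to 0.32 within a group, than those of KDM4C. Without untreated replicate 2 the difference was 0.64 and without untreated replicate 3 it was 0.48, and the adjusted p stayed above 0.05 in each of the 11 alternative fits (0.1 to 0.333, limma).

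The annotation places KDM4A-AS1, a long non-coding RNA, across the end of KDM4A. It stood at 5.22, 4.57 and 4.77 without doxycycline, against 4.83, 4.85 and 5.09 with it. These groups overlapped, and the log2 difference was -0.07 (95% confidence interval -0.48 to 0.34). Whether the KDM4A probe set picks up any of this RNA was not tested. Nor was it tested whether the KDM4A, KDM4B and KDM4D probe sets pick up RNA of the KDM4C construct.

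KDM4D, the short member that acts on H3K9, was at 6.88, 6.52 and 6.67 without doxycycline, against 6.29, 6.45 and 6.48 with it. The groups did not overlap, but they were only 0.04 apart at untreated replicate 2 and doxycycline-treated replicate 3. The log2 difference of 0.28 (SE 0.11, 95% confidence interval 0.02 to 0.54) had an unadjusted p of 0.0372 and an adjusted p of 0.367 in limma. The means were 6.69 ± 0.18 without doxycycline and 6.41 ± 0.10 with it (SD, n = 3 each). With untreated replicate 1, the highest array, left out, the difference was 0.19. A difference above 0.28 was found for 5.96% of all probe sets.

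KDM4E, a close relative of KDM4D that lies beside it on chromosome 11, is the only other family member with a named probe set. It was at 3.15, 3.16 and 3.08 without doxycycline, against 3.26, 3.25 and 3.16 with it. Its mean lay above that of only 16.9% of all probe sets, so a change could easily be missed there. On the log2 scale the difference came to -0.09 (limma adjusted p = 0.613), opposite in sign to KDM4D. Whether the KDM4D and KDM4E probe sets detect each other's RNA was not tested, and KDM4F was not analysed here.

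KDM4B, the member known from other cells as a gene induced by hypoxia, was at 7.08, 6.82 and 6.96 without doxycycline, against 6.88, 7.01 and 6.81 with it. The groups overlapped. The means were 6.95 ± 0.13 without doxycycline and 6.90 ± 0.11 with it (SD, n = 3 each), a fold of 1.04 with a 95% confidence interval of 0.888 to 1.21 (limma adjusted p = 0.866). The interval excludes a fold of 1.46, the estimate for KDM4A, but the interval of KDM4A itself reached down to 1.21. The missed threshold does not show that KDM4B was unaltered. Without untreated replicate 1 the log2 difference was -0.01.

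**Figure D1:**
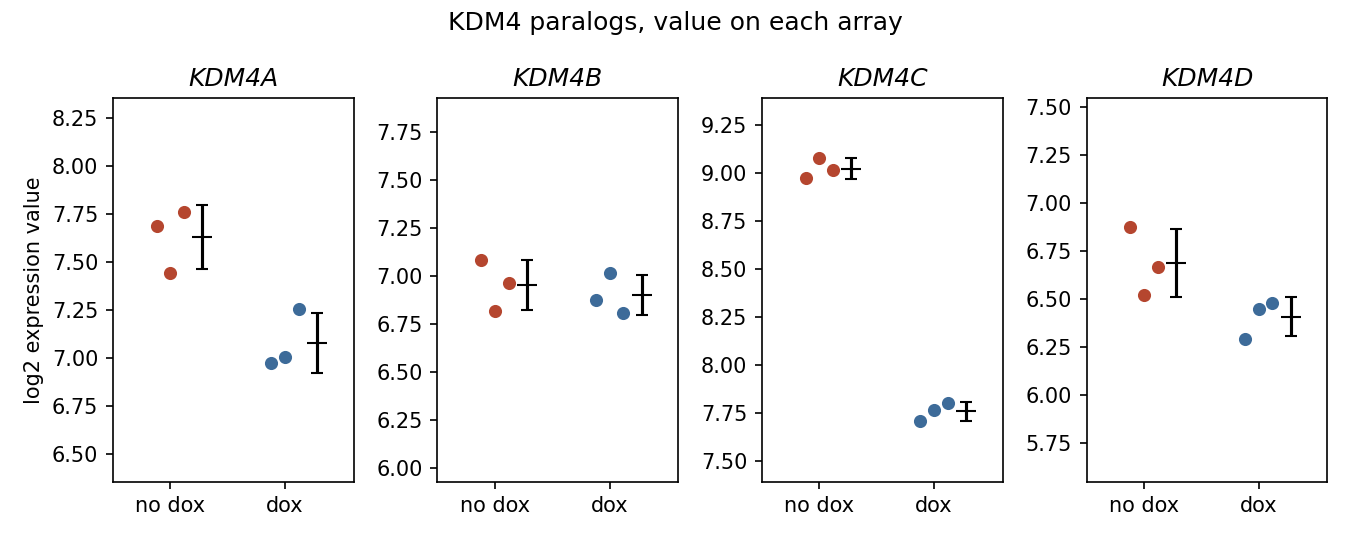
Log2 expression values of KDM4A, KDM4B, KDM4C and KDM4D on each array (points), with the mean and SD of 3 arrays beside them, for cells without doxycycline (no dox, left) and with it (dox, right). Each panel spans the same height on the log2 scale but has its own level. KDM4C is at 8.97 to 9.08 without doxycycline and 7.71 to 7.80 with it, KDM4A and KDM4D are apart by 0.18 and 0.04 at their nearest arrays, and KDM4B overlaps.

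Within a group, some paralogs shared an order of the arrays and others did not. Among the untreated arrays, replicate 2 was the lowest for KDM4A, KDM4B and KDM4D and the highest for KDM4C. Among the doxycycline-treated arrays, KDM4A, KDM4C and KDM4D rose in the same order, from replicate 1 to replicate 3. For KDM4B replicate 3 was the lowest. With 3 arrays per group no correlation was computed.

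Probe sets bind their targets with unequal strength, so the levels of the 4 genes give no order of abundance. Each was read against the whole table only to show that none was dim. The means of KDM4C, KDM4A, KDM4B and KDM4D lay above those of 90.7%, 84.0%, 80.8% and 77.9% of all probe sets. The whole table ran from 2.12 to 14.3, with array medians between 3.94 and 3.96.

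**Figure D2:**
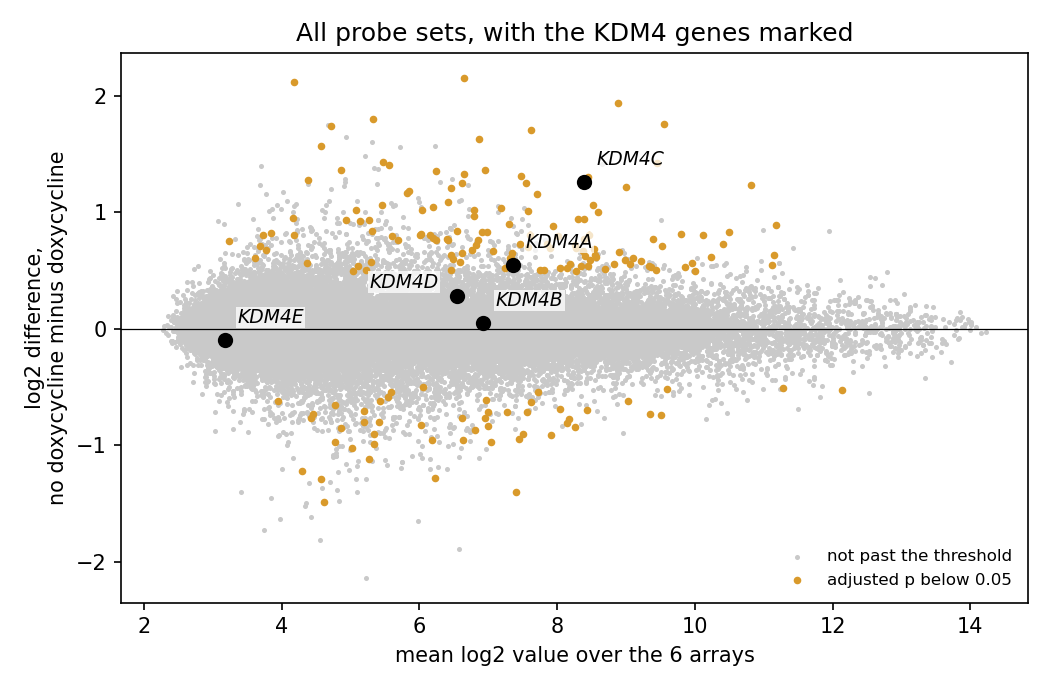
Log2 difference between cells without and with doxycycline (vertical axis) against the mean log2 value over the 6 arrays (horizontal axis) for 53617 probe sets. Orange points passed limma's adjusted p of 0.05, and black points are KDM4 genes. KDM4C lies at 1.27 among the passing probe sets, KDM4A at 0.55 on the edge of the cloud, and KDM4B and KDM4D inside it.

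The responses of the paralogs were set against each other within arrays, which compares changes and not levels. On each array 1 paralog's log2 value was subtracted from another's, and the result was compared between the groups for all 6 pairs. The KDM4C minus KDM4A value was 1.29, 1.64 and 1.26 without doxycycline, against 0.73, 0.76 and 0.55 with it. KDM4C therefore differed by 0.71 more than KDM4A, a further fold of 1.64. For KDM4C minus KDM4D the values were 2.10, 2.56 and 2.35 without doxycycline, against 1.41, 1.32 and 1.32 with it, and the difference in response was 0.98. For KDM4C minus KDM4B they were 1.89, 2.26 and 2.06 without doxycycline, against 0.83, 0.75 and 1.00 with it, and the difference in response was 1.21. Every one of these 3 pairs was separated between the groups by more than its own spread, with SDs of 0.05 to 0.23.

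Among the 3 paralogs that the construct does not encode, the gaps were smaller. KDM4A minus KDM4B was 0.61, 0.63 and 0.80 without doxycycline, against 0.10, -0.01 and 0.45 with it, a difference in response of 0.50. KDM4A minus KDM4D was 0.81, 0.92 and 1.09 without doxycycline, against 0.68, 0.55 and 0.78 with it, a difference of 0.27. KDM4D minus KDM4B gave a difference of 0.23, with group means of -0.26 ± 0.05 without doxycycline and -0.49 ± 0.14 with it (SD, n = 3 each). In all 6 pairs the groups did not overlap. Each two-sided exact permutation test gave p = 0.1, also after Benjamini-Hochberg adjustment over the 6 pairs. That is the smallest p that 3 against 3 arrays allow, so no pair could reach 0.05. The pairs share genes and are not independent of each other.

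The genes beside the 4 paralogs on their chromosomes were read for the 3 nearest measured and named genes on each side. Of these 24 genes, 1 passed the threshold, where 0.341% of all probe sets passed in either direction. It was CDC20, which switches on the anaphase-promoting complex in mitosis and lies before KDM4A on chromosome 1, at 9.23 ± 0.08 without doxycycline and 8.57 ± 0.04 with it (SD, n = 3 each). The log2 difference of CDC20 was 0.66 (SE 0.07, limma adjusted p = 0.0299), and it passed in 0 of the 6 fits with 1 array fewer. The genes between CDC20 and KDM4A, ELOVL1 (a fatty acid elongase) and MED8 (a Mediator subunit), were at -0.03 and 0.10. On the other side ARTN, a ligand of the GDNF family, was at -0.21 and IPO13, an importin, at -0.20.

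On chromosome 9, none of the 6 neighbours of KDM4C passed limma's adjusted p of 0.05, and 2 had an unadjusted p below it, as did 12.4% of all probe sets. Their log2 differences ran from -0.18 to 0.29 around the 1.27 of KDM4C. GLDC, the glycine decarboxylase next to KDM4C, was at 3.84 ± 0.23 without doxycycline and 3.73 ± 0.05 with it (SD, n = 3 each), a level below the median probe set. The next measured gene on the other side, DMAC1, a mitochondrial complex I assembly protein, was at -0.18, and LURAP1L was at 0.29 (unadjusted p = 0.00721, limma adjusted p = 0.213). The neighbours of KDM4B on chromosome 19, among them UHRF1, which binds methylated H3K9 and maintains DNA methylation, ran from -0.14 to 0.06. Those of KDM4D on chromosome 11 ran from -0.23 (ENDOD1) to 0.13 (CWC15, a spliceosome protein).

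**Figure D3:**
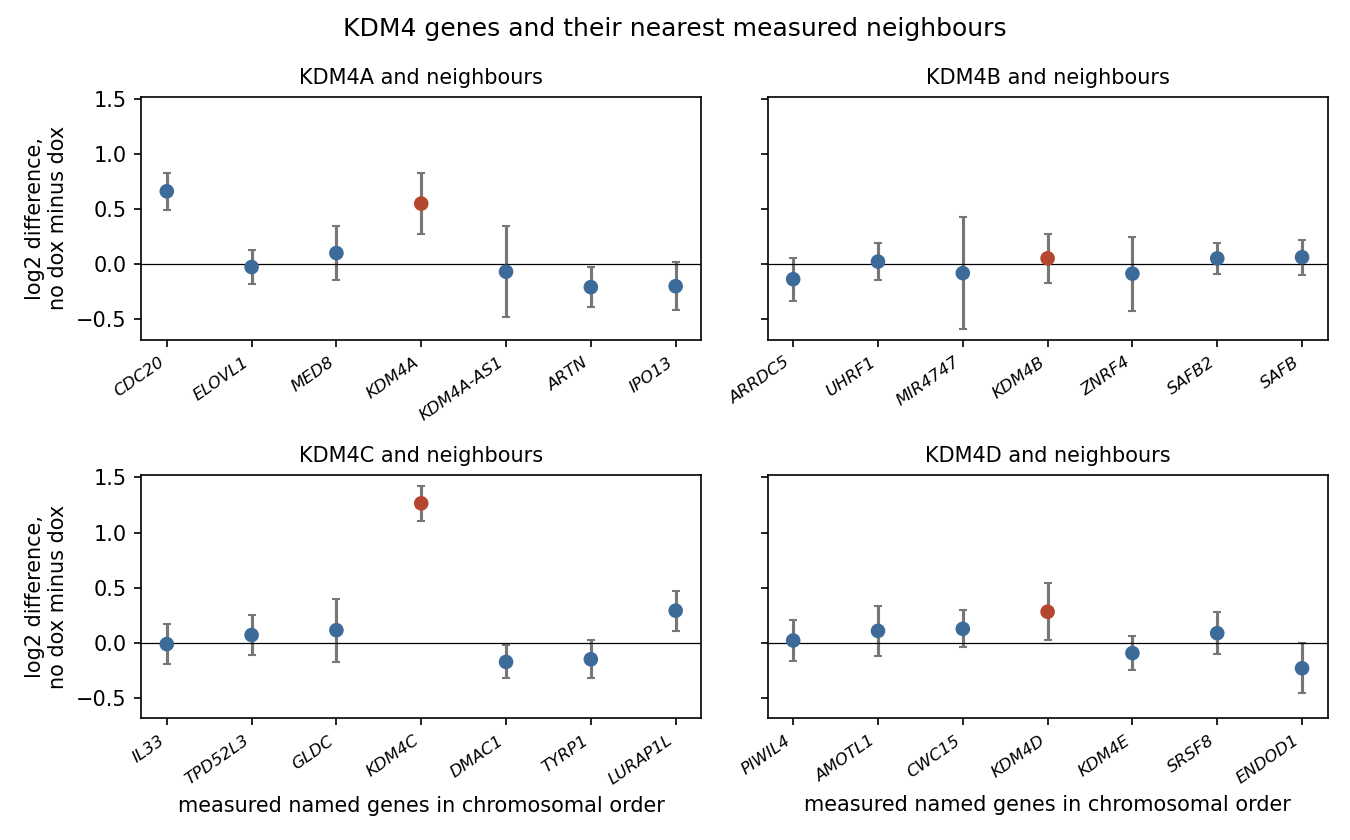
Log2 difference between cells without and with doxycycline, with its 95% confidence interval from limma, for each KDM4 gene (red) and the 3 nearest measured named genes on each side (blue), in chromosomal order and not to distance. KDM4C stands at 1.27 between neighbours at -0.18 to 0.29, and CDC20 at 0.66 is the only neighbour past the threshold.

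Likeness between genes was measured as the root mean square distance of log2 values over the 6 arrays, after each probe set's own mean was subtracted. The 14880 other named genes were compared with each paralog. The gene closest to KDM4C was TFPI2, a protease inhibitor, at a distance of 0.084. It was followed by TRIB3, a pseudokinase of the integrated stress response, at 0.104, by DDIT4, a stress-induced inhibitor of mTOR signalling, at 0.109, by STC2, a secreted glycoprotein, at 0.131, and by a row annotated to MIR3143 at 0.138, whose value is not that of a mature microRNA. TFPI2 was at 6.91 ± 0.11 without doxycycline and 5.56 ± 0.12 with it, and TRIB3 at 8.14 ± 0.04 without and 6.83 ± 0.15 with it (SD, n = 3 each). These 5 passed the threshold as higher, with log2 differences of 1.16 to 1.43, and a large difference between the groups is what the measure weighs most. Only TFPI2 lay within 0.1 of KDM4C.

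For KDM4A the closest gene was HROB, which takes part in DNA repair by homologous recombination, at a distance of 0.015. HROB stood at 5.52 ± 0.16 without doxycycline and 4.95 ± 0.17 with it (SD, n = 3 each), a log2 difference of 0.57 (limma adjusted p = 0.146). VASH1, a tubulin carboxypeptidase, and SPRY4, an inhibitor of ERK signalling, came next at 0.060 and 0.061, with differences of 0.44 and 0.52 that did not pass. Within 0.1 of KDM4A lay 13 genes. The closest genes to KDM4D were MTMR14, ASRGL1 and FRRS1 at 0.028 to 0.040, of 156 within 0.1. Those closest to KDM4B were MCOLN3, CHPF and GSX2 at 0.020 to 0.025, of 2175 within 0.1. The values of KDM4B had a root mean square about their own mean of only 0.101. A limit of 0.1 therefore says little about likeness to KDM4B. MCOLN3 and GSX2 lay below the median probe set.

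No gene passed the threshold among other demethylases and the writers and readers of H3K9 and H3K36 methylation. These 6 lists held 55 measured genes (of 65 listed), some of them demethylases of other lysines such as H3K4 and H3K27, and 0 passed limma's adjusted p of 0.05. At an unadjusted p below 0.05, 5 were higher and 2 lower, 12.7% of the 55, against 12.4% of all probe sets in either direction. Of all named genes with 1 probe set each, the closer background, 14.4% were so. Their median log2 difference was 0.0044, beside 0.0065 over all probe sets, and no absolute difference reached that of KDM4A. Groups did not overlap in 8 of the 55 upward and 11 of the 55 downward. Of all probe sets 10.2% and 9.09% did the same. The closer background is the 14884 named genes with 1 probe set each, of which 1796 and 1863 did so. The upward share of the lists lay close to that background, and the downward share was larger. No test of the lists as sets was run, so neither share is read as a result about the lists.

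Among the 18 other JmjC demethylases the differences ran from -0.20 to 0.26, with 11 positive and 7 negative. KDM6B, which removes methyl groups from H3K27, was the highest, at 7.60 ± 0.03 without doxycycline and 7.34 ± 0.15 with it (SD, n = 3 each). JMJD1C was at 0.15, HR, the hairless corepressor and an H3K9 demethylase, at -0.20, and KDM5B, an H3K4 demethylase, at -0.15. The H3K9 demethylases KDM3A and KDM3B, which act on lower methylation states than the KDM4 enzymes, were at 0.07 and 0.004. In the flavin-dependent LSD family and its partners, KDM1A was at -0.11 and KDM1B at -0.22, and the partners PHF21A and RCOR2 at 0.16 and 0.17.

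Of the enzymes that put these marks on, 9 for H3K9 and their cofactors had a median of 0.08. MECOM was the highest at 0.39 (SE 0.12, limma adjusted p = 0.277), PRDM16 was at 0.12 and SUV39H2, a trimethylase of H3K9, the lowest at -0.11. SUV39H1 was at 0.09, and its dimmer probe set at -0.04. WIZ and ATF7IP, cofactors of EHMT1 with EHMT2 and of SETDB1, were at 0.15 and -0.05. For H3K36 the 6 enzymes had a median of 0.01, with NSD2 at 0.22 (unadjusted p = 0.0110, limma adjusted p = 0.243), SETD5 at 0.16, NSD3 at -0.11 and SMYD2 at -0.07. SETD2, the trimethylase of H3K36, was at 8.33 ± 0.02 without doxycycline and 8.25 ± 0.13 with it (SD, n = 3 each).

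Of the 6 readers of H3K9 methylation, 4 had negative differences, with a median of -0.14. ATRX was at -0.26, MPHOSPH8, a subunit of the HUSH silencing complex, at -0.18, and the heterochromatin proteins CBX3, CBX5 and CBX1 at -0.15, -0.13 and 0.13. UHRF1, the neighbour of KDM4B, was at 0.02. None of the 6 passed limma's adjusted p of 0.05, and ATRX had an unadjusted p below it. The 10 readers of H3K36 methylation had a median of -0.03. PHF19, a Polycomb accessory protein that binds H3K36 methylation, was at 7.29 ± 0.03 without doxycycline and 6.86 ± 0.02 with it (SD, n = 3 each). Its difference of 0.43 (SE 0.06) missed the threshold at a limma adjusted p of 0.0565, and passed with trend and robust moderation (0.0435) and without dim probe sets (0.0395). HDGFL2 was at 0.09, PWWP2A at -0.16 and MSH6 at -0.13.

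**Figure D4:**
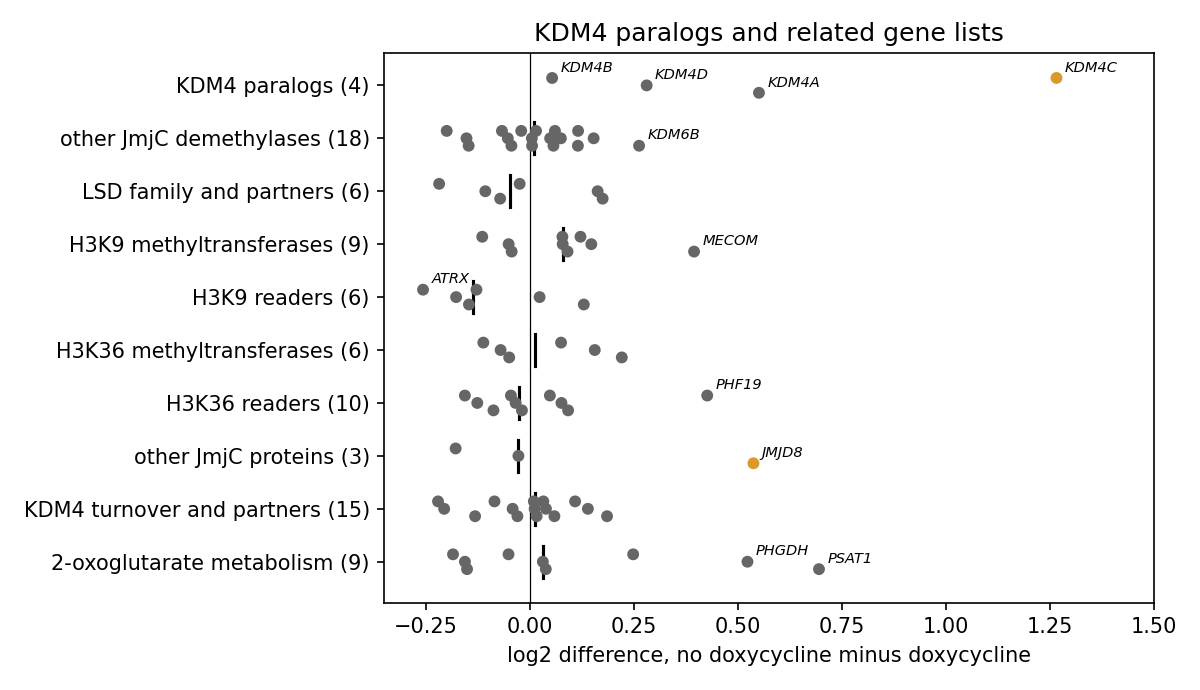
Log2 differences between cells without and with doxycycline (horizontal axis) for the KDM4 paralogs and 9 lists of related genes, 1 point per gene, with the number of measured genes in brackets and the list median as a black bar. Orange points passed limma's adjusted p of 0.05. KDM4C at 1.27 and JMJD8 at 0.54 are the only passing points, and the first 6 lists below the paralogs lie between -0.26 and 0.43.

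Of 3 measured JmjC proteins outside the demethylase lists, JMJD8 rose, where 0.341% of all probe sets passed in either direction. JMJD8, a JmjC protein of the endoplasmic reticulum, was at 8.72 ± 0.04 without doxycycline and 8.18 ± 0.07 with it (SD, n = 3 each), 1.45-fold higher (log2 0.54, SE 0.07, limma adjusted p = 0.0449). With each array's median subtracted its adjusted p in limma was 0.0517, and it passed in 0 of the 6 fits with 1 array fewer. TYW5 and HSPBAP1 were at -0.18 and -0.03. The 15 measured genes of KDM4 turnover and of its partners held 0 past the threshold. Taken singly without adjustment, 0 were higher and 2 lower at p below 0.05 (of all probe sets, 12.4% in either direction), and the median was 0.01. CUL4A, a ubiquitin ligase scaffold, was at -0.22, and FBXL4, an F-box protein, at -0.21. HDAC3, the deacetylase of the NCoR corepressor complex, was at 0.14 and USP1, a deubiquitinase, at 0.11. FBXO22, an F-box protein that directs KDM4A to degradation, was at -0.03, with a 95% confidence interval of -0.17 to 0.11.

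The 9 measured genes that make or use 2-oxoglutarate, the co-substrate of KDM4 enzymes, held 0 past the threshold. Without adjustment 3 were higher, where 6.7% of all probe sets were, and 0 lower at p below 0.05, with a list median of 0.03. PSAT1 and PHGDH, serine synthesis enzymes, were at 0.69 (SE 0.13, limma adjusted p = 0.104) and 0.52 (SE 0.07, limma adjusted p = 0.0507). PSAT1 releases 2-oxoglutarate when it transfers an amino group from glutamate. The enzymes of the citric acid cycle that make or use it directly, IDH3A, IDH3B, IDH3G, OGDH and DLST, were at -0.15, -0.05, 0.04, -0.16 and -0.19, and GLUD1, glutamate dehydrogenase, was at 0.03. The remaining 12 listed genes were not analysed here.

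**Figure D5:**
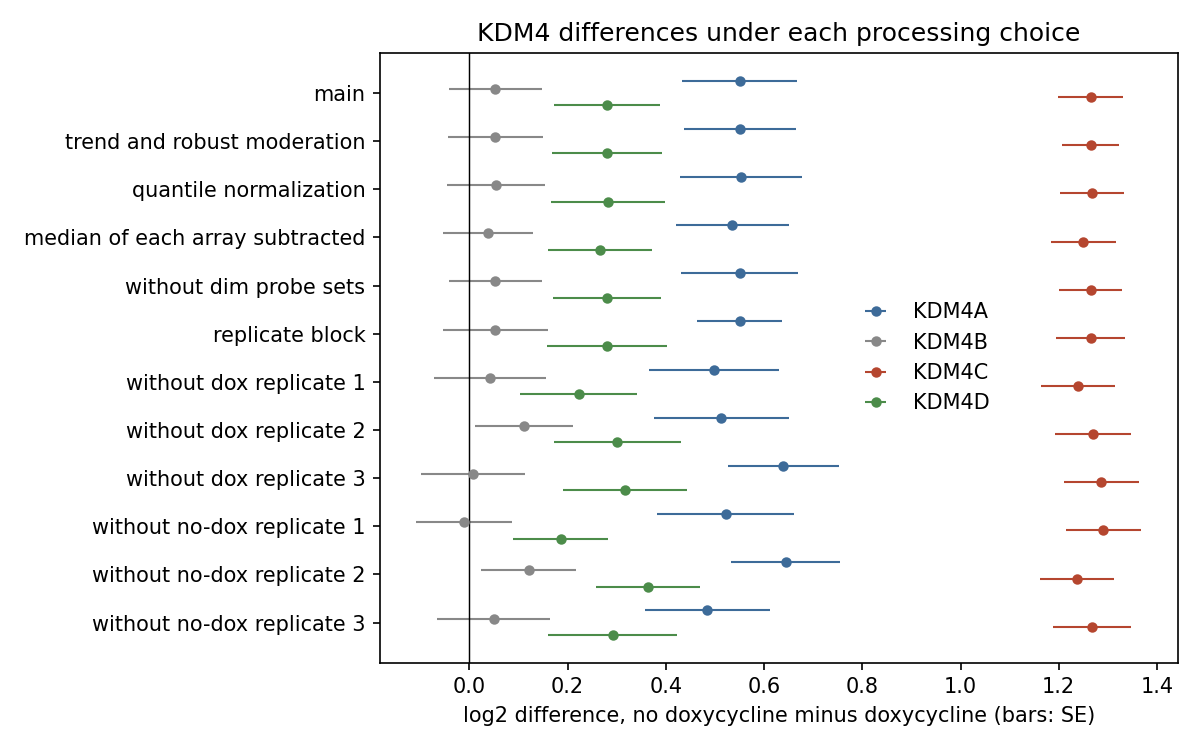
Log2 difference of KDM4A (blue), KDM4B (grey), KDM4C (red) and KDM4D (green) between cells without and with doxycycline, with its SE, under the main fit (top) and 11 alternatives (below). KDM4C stays between 1.24 and 1.29 and KDM4A between 0.48 and 0.64. KDM4D lies between 0.19 and 0.36, and KDM4B crosses 0, from -0.01 to 0.12.

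The labelled cell type was read from its markers. All 11 measured markers of noradrenergic neuroblastoma lay above the median probe set, from TBX2 at 6.28 without and 6.08 with doxycycline to DBH at 11.3 without and 11.0 with it, and 0 passed the adjusted threshold in limma, though TH and DBH, enzymes of catecholamine synthesis, were higher (0.34 and 0.28) and the granins CHGA and CHGB lower (-0.40 and -0.34) at an unadjusted p below 0.05. Of all probe sets 12.4% were so in either direction. Of 22 measured markers of 5 other cell types, 9 lay above the median probe set, and 1, the fibroblast marker DCN, passed as lower, where 0.0933% of all probe sets did (log2 -1.29, SE 0.07, limma adjusted p = 0.0119). The fibroblast list had 2 of 7 genes measured, DCN and LUM. DCN was at 5.58 without doxycycline and 6.87 with it. LUM was at 11.1 without and 11.4 with it, above 98.8% of all probe sets. Its log2 difference of -0.30 did not pass (limma adjusted p = 0.139). The summed values of both on the linear scale, made up mostly of LUM, were 2105 to 2231 without doxycycline and 2669 to 2816 with it. The part of this shift in the KDM4 values was not tested. Markers of other lineages also differed at an unadjusted p below 0.05 in limma, and none of them passed after adjustment. The immune marker LCP1 was lower (-0.43). SOX9, of the Schwann and neural crest list, and the endothelial marker ERG, below the median probe set, were higher (0.27 and 0.31). Correlations between arrays over all probe sets were 0.991 to 0.993 within groups and 0.990 to 0.991 between them.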

How the data were processed

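Total RNA of 6 cell samples was hybridised to Affymetrix whole-transcript arrays. The authors deposited log2 expression values, 1 for each probe set on each array. Partek made them, per the submitters' processing notes. Not given in the sources used here are its version, the steps of background correction, normalization and summarization, and the genome build. The log2 base was read from the values, since 16-bit scanner output cannot exceed 11.1 as a natural logarithm. The number of arrays limits the precision.

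Names came from GEO's annotation of the platform. Exactly 1 symbol was listed for 16098 of the 53617 probe sets, several for 0 and none for 37519. All 16098 Entrez identifiers matched the RefSeq table of GRCh38.p14, and 0 symbols changed. The brightest probe set stood for a gene with several. Promoter sequences came from RefSeq.

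Every probe set entered 1 limma 3.58.1 fit in R 4.3.3, no doxycycline minus doxycycline, with no covariate and no filter. P-values were adjusted by Benjamini and Hochberg over all probe sets, with a threshold of 0.05. The procedure was tested on simulated data. Responses of paralogs were compared with exact permutation tests in scipy 1.17.1. Alternatives were trend and robust moderation, quantile normalization, subtraction of each array's median, a filter on dim probe sets, a replicate block, and each array left out.

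The genes named are the paralogs, the 5 genes most like KDM4C and the 3 most like each other paralog, the 3 nearest measured genes on each side, and in each list of related enzymes all passing genes or, per direction, the 2 of smallest p. Further members were added after their values were seen. The members and lists were chosen with earlier results of these data known.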

Additional observations from a re-analysis of the deposited data

How the results depend on the processing

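The differences of KDM4A and KDM4D kept their sign and stayed outside the threshold in each of the 11 alternatives. KDM4C kept its sign in all 11, between 1.24 and 1.29, and its limma adjusted p ran from 0.00171 to 0.118. It missed the threshold with the replicate block (1.27, adjusted p = 0.118) and in 4 of the 6 fits that left out 1 array (1.24 to 1.27, adjusted p 0.0597 to 0.0696). In the other 2 it passed (1.29 in both, adjusted p 0.0311 and 0.0315). KDM4B ran from -0.01 to 0.12 when 1 array was left out and turned negative, at -0.010, without untreated replicate 1. The cause was not tested. Over all probe sets same-numbered arrays did not deviate together, with correlations of -0.0119, -0.0144 and 0.0407 for numbers 1, 2 and 3. Such values cannot show whether those arrays shared a culture or a batch. The replicate block leaves fewer degrees of freedom. Of all probe sets, 183 passed in the main fit, 385 with trend and robust moderation, 311 without dim probe sets, 0 with the replicate block (6251 at an unadjusted p below 0.05) and 0 to 15 with 1 array left out (5542 to 6191 at an unadjusted p below 0.05), where fewer samples were fitted. Of the 6 lists of other demethylases and of H3K9 and H3K36 writers and readers, 1 gene, PHF19, passed with trend and robust moderation and 1, also PHF19, without dim probe sets, against 0 in the main fit. The 6 differences in response between paralogs kept their sign in each of 8 alternatives, KDM4C minus KDM4A between 0.59 and 0.78. The exact test could not go below 0.2 with 1 array fewer or 0.25 with the block. The same alternatives were added after seeing the data for 8 other genes named as past the threshold (CDC20, DCN, DDIT4, JMJD8, MIR3143, STC2, TFPI2 and TRIB3). With arrays median-centred 7 passed, all but JMJD8. With 1 array left out, 4 passed without doxycycline-treated replicate 3 (DCN, DDIT4, MIR3143 and TRIB3), 2 without untreated replicate 1 (DCN and TFPI2) and 0 in the other 4 fits, and 0 with the block.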
